A study of Mus musculus with 14 samples.

Results

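Id2 and Id3 are the members described here, 2 of the 3 Id genes with counts in these data. They were chosen by their measured counts in both tables, with their levels and NK contrasts known, so their levels and fold changes are descriptions without a test. Id1 is given beside them, and Id4 was in neither table. The table of natural killer (NK) cells listed 10210 genes and that of the sCAF libraries 12235, with 9215 in both.

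Id proteins are helix-loop-helix proteins without the basic region that contacts DNA. They pair with E proteins such as those encoded by Tcf3, Tcf4 and Tcf12, and the pair cannot bind E-box sites. Id2 is required for the NK lineage and for other innate lymphoid cells, where it holds E protein activity down. Id3 is best known in T and B lymphocytes and as a target of BMP and TGF-beta signalling through SMAD proteins in many cell types.

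All animals were female BALB/c mice of 8 weeks. NK cells came from spleens of healthy mice (n = 3), from spleens of mice carrying a 4T1 tumour (n = 4) and from 4T1 tumours (n = 4), and sCAFs came from such tumours (n = 3). 4T1 is a mouse mammary carcinoma line, here expressing GFP, and 100000 cells were placed in the lower left mammary fat pad. sCAF is the study's name for a subset of cancer-associated fibroblasts. NK cells were sorted as CD45+ NKp46+ and negative for GFP, EPCAM, CD3, CD31 and CD14, and sCAFs by the absence of PDPN, CD31, CD45, GFP and EPCAM. Tumours were digested for 20 min at 37 °C. Spleens were crushed instead, and the labels give lysis of red cells, 5 min on ice, for spleens only. Tissue, digestion and lysis cannot be told apart in any comparison of tumour with spleen. The labels call the replicates independent, and neither they nor the files pair a tumour with a spleen.

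Libraries held 559688 to 1966963 counts (NK) and 1318067 to 2230475 (sCAF). A count of 0 allows up to 3 counts, or 1.53 to 5.36 CPM (counts relative to the library's own size) in NK libraries and 1.35 to 2.28 CPM in sCAF libraries. These floors and the intervals below cover counting error only. In both headers a run of spaces joined a pair of column names, tumour replicates 3 and 4 in the NK table, and columns were assigned by position. Spleen libraries fell on 2 sides that no label explains. Deviations from the group mean over all genes correlated at 0.501 and 0.528 between tumour-bearing replicates 1 and 2 and healthy replicate 1, and at -0.496 and -0.522 between tumour-bearing replicates 3 and 4 and healthy replicate 1.

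The defining markers were checked against the labels before the Id genes were read. All 10 listed NK markers had counts in the NK libraries, summing to 27573 to 30179 CPM in healthy spleens, 26773 to 29816 CPM in tumour-bearing spleens and 18312 to 21615 CPM in tumours. A list of 7 genes of type 1 innate lymphoid cells (ILC1), relatives of NK cells that also express NKp46 and Id2, summed to 84.5 to 170 CPM, 82.4 to 206 CPM and 542 to 666 CPM in the same order. In tumours Tmem176a and Tmem176b gave 104 to 152 and 196 to 296 CPM of it. Both were higher still in the sCAF libraries (326 to 436 and 1028 to 1329 CPM), so the sum is not particular to ILC1. Cxcr6, at 0 in sCAF libraries, was 68.0 to 105 CPM in tumours and 7.63 to 26.4 CPM in spleens. In the sCAF libraries the 8 listed fibroblast markers summed to 455 to 1210 CPM, with Col1a2 at 178 to 414 CPM. Col3a1 was 75.8 to 264 CPM, Pdgfrb 40.2 to 217 CPM and Dcn 39.9 to 146 CPM. Pdgfra was 40.2 to 84.8 CPM, Col1a1 46.2 to 81.8 CPM, and Lum and Fap were at or below 2.28 CPM. The 6 listed carcinoma or epithelial markers summed to 2995 to 3861 CPM there, led by Krt18 at 2250 to 2993 CPM and Krt8 at 691 to 826 CPM. The others were low, with Epcam at 5.83 to 27.3 CPM, Krt14 at 8.97 to 37.2 CPM, Cdh1 at 8.52 to 40.2 CPM and Krt5 at 0. Keratin transcripts thus exceeded those of the fibroblast markers, against the label, and sCAF is used below only as the name of these libraries.

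The promoter windows of both genes are shown because the genes had opposite levels in NK and sCAF libraries and differ in the short motifs tied to E proteins and SMADs. Each runs from 250 bases before to 50 bases after the RefSeq start on GRCm38.p6. The Id2 window is chr12:25096043-25096342 on the minus strand, and the Id3 window is chr4:136143572-136143871 on the plus strand. Capitals mark every match, on either strand, to the E-box CANNTG, the SMAD box CAGAC or the GC-rich SMAD element GGCGCC.
Id2: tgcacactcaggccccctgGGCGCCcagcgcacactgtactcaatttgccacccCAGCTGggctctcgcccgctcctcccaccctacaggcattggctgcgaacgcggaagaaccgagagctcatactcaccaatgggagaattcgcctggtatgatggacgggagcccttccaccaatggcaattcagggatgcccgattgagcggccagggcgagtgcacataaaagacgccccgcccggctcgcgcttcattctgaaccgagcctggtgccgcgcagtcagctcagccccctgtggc
Id3: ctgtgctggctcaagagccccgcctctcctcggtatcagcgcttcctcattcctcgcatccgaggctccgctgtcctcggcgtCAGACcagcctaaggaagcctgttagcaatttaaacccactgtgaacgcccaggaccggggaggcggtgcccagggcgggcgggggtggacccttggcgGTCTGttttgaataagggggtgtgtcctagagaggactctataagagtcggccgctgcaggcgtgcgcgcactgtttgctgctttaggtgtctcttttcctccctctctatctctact
The Id2 window held 1 E-box, which 72.3% of 32851 promoter windows of this length also held, and 1 GGCGCC element, which 11.9% held. It held no CAGAC. The Id3 window held 2 SMAD boxes, a motif present in 49.6% of windows, and neither of the others. A CCAAT box, the site of the NF-Y factor, matched at 3 places in the Id2 window and none in the Id3 window, against 37.4% of all windows. These matches describe letters in the window and do not show that a factor binds.

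**Figure D1:**
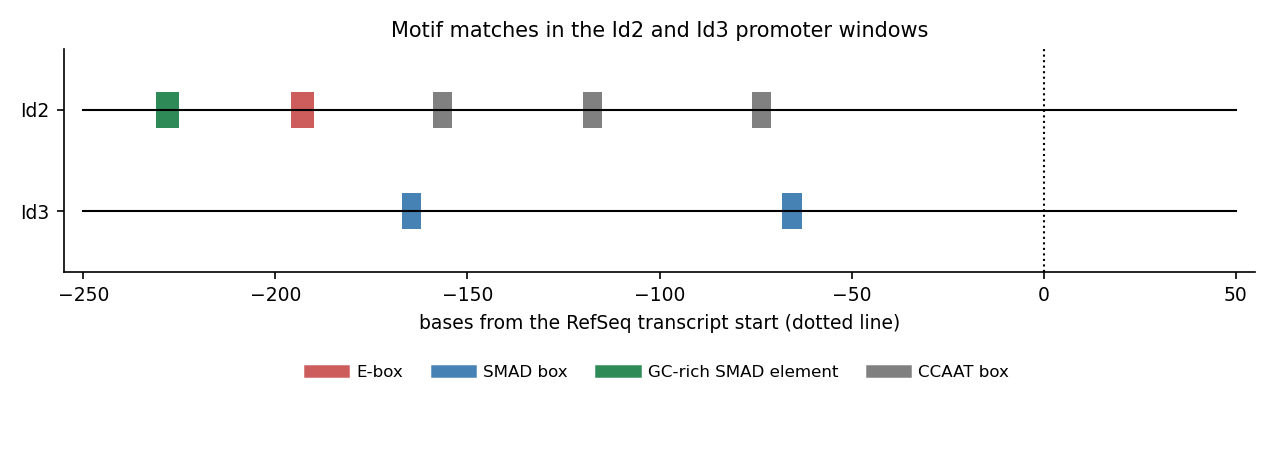
Motif matches on both strands in the promoter windows of Id2 and Id3, plotted by distance in bases from the RefSeq start (dotted line at 0). Id2 has 1 E-box, 1 GC-rich SMAD element and 3 CCAAT boxes, and Id3 has 2 SMAD boxes.

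In the GENCODE annotation of GRCm38, Id2 spans chr12:25093799-25097140 and Id3 chr4:136143497-136145755, and neither overlaps another gene. Both promoter windows lie inside these spans, so each GENCODE gene begins upstream of its window. Id2 shared 42 of its 2433 exonic stretches of 30 bases with 1 other gene, Gm6175, which was in neither table. Id3 shared none.

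Id2 was high in NK cells of all 3 groups and highest in spleens of tumour-bearing mice. On TMM-scaled library sizes (a scaling by the genes that change least) it stood at 1592, 1480 and 1587 CPM in healthy spleens. In spleens of tumour-bearing mice it stood at 2474, 2139, 1834 and 2015 CPM. In tumours it stood at 1620, 1478, 1464 and 1700 CPM. All 4 tumour-bearing spleens lay above every healthy spleen and every tumour, while healthy spleens and tumours overlapped. Less RNA per cell and fewer cells of a type cannot be told apart in these bulk libraries.

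The means were 1553 ± 63.0 CPM (SD, n = 3) in healthy spleens, 2116 ± 270 CPM (SD, n = 4) in tumour-bearing spleens and 1566 ± 114 CPM (SD, n = 4) in tumours. The fitted log2 fold change of Id2 was -0.43 (SE 0.138) between tumours and tumour-bearing spleens. Groups that did not overlap, with tumours lower, were found for 13.3% of all genes in that contrast, so the separation itself is common. Between tumour-bearing and healthy spleens the log2 fold change was 0.45 (SE 0.150), where 6.52% of all genes separated with tumour-bearing spleens higher. Between tumours and healthy spleens it was 0.01 (SE 0.149), smaller than its error.

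The order of the Id2 groups depended in part on the scaling, an alternative chosen after seeing the data. On raw totals Id2 stood at 1846, 1559 and 1589 CPM in healthy spleens, 2522, 2276, 1811 and 1944 CPM in tumour-bearing spleens, and 1503, 1432, 1324 and 1557 CPM in tumours. Healthy replicate 1 then lay above tumour-bearing replicate 3, and the highest tumour fell just under the lowest healthy spleen. That left tumours below all healthy spleens, as for 26.3% of genes on raw totals. Tumours stayed below all tumour-bearing spleens under both scalings (19.7% of genes on raw totals). The log2 fold change between tumours and healthy spleens became -0.19, while the median of all genes moved to -0.18 in that contrast, close to the change of Id2.

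**Figure D2:**
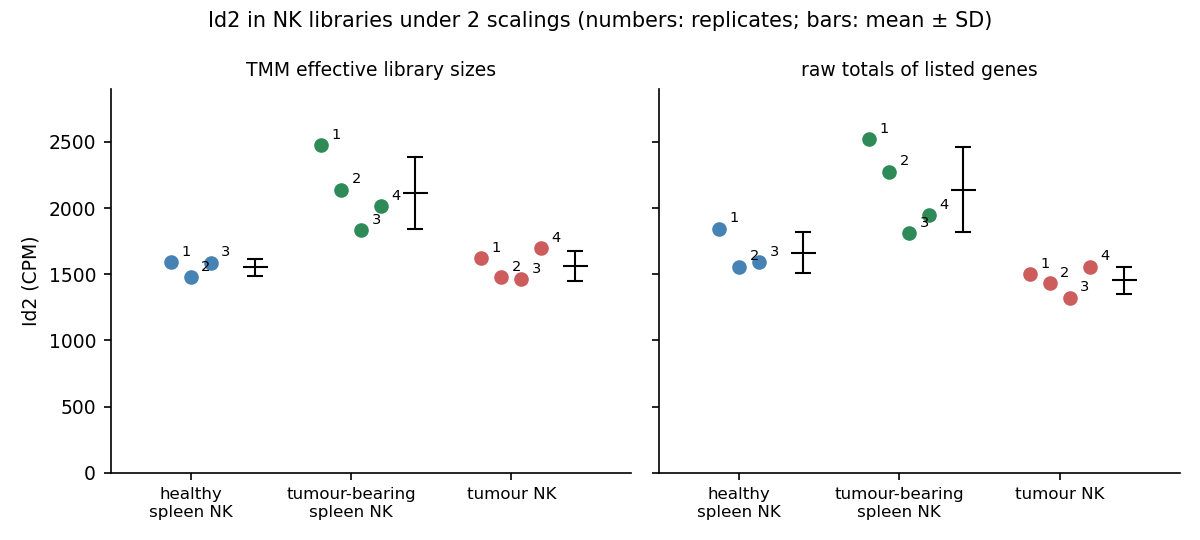
Id2 in each NK library as CPM on TMM library sizes (left) and on raw totals (right), with replicate numbers beside the points and the mean ± SD beside each group. Tumour-bearing spleens lie above tumours in both panels, and healthy replicate 1 overlaps them on raw totals.

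Within the sides of the spleen libraries Id2 had the same direction. On the side of tumour-bearing replicates 1 and 2 and healthy replicate 1, the log2 ratio of tumour-bearing to healthy means was 0.54. On the side of the other 4 spleen libraries it was 0.33, with tumour-bearing spleens at 1834 to 2015 CPM and healthy spleens at 1480 to 1587 CPM. Against tumour-bearing replicates 1 and 2 alone the log2 fold change of tumours was -0.56, and against replicates 3 and 4 alone it was -0.33. The part of the ILC1 markers, which were also different in tumours, in the Id2 level was not tested.

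Id3 was near the detection floor in NK cells. Its raw counts were 1, 8 and 3 in healthy spleens, 10, 3, 11 and 10 in tumour-bearing spleens, and 10, 3, 15 and 10 in tumours. On TMM sizes this was 1.54 to 4.28 CPM, 1.67 to 7.62 CPM and 4.35 to 9.51 CPM. Tumour-bearing spleens overlapped both other groups. Tumours lay just above healthy spleens on TMM sizes, as did 18.5% of all genes, and overlapped them on raw totals (4.21 to 8.71 against 1.79 to 4.51 CPM). Of the 11 libraries, 4 had 3 counts or fewer. Pooled over libraries, the level on raw totals was 3.38 CPM in healthy spleens (exact Poisson 95% interval 1.75 to 5.91), 5.34 CPM in tumour-bearing spleens (3.70 to 7.46) and 7.58 CPM in tumours (5.36 to 10.4). Every pair of groups had overlapping intervals, healthy spleens and tumours only from 5.36 to 5.91 CPM.

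The fitted log2 fold change of Id3 was 1.34 (SE 0.534) between tumours and healthy spleens. It was 0.58 (SE 0.424) between tumours and tumour-bearing spleens and 0.76 (SE 0.546) between tumour-bearing and healthy spleens. The last 2 values were less than 2 times their errors, and leaving out healthy replicate 2, which held 8 of the 12 healthy counts, moved the first to 1.87. Id1 had 0, 2 and 4 counts in healthy spleens, 2, 2, 1 and 2 in tumour-bearing spleens and 6, 3, 4 and 1 in tumours. It was too low for the filter on counts, and no fold is given for Id1.

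Among the Id genes the sCAF libraries had the reverse order. Id3 stood at 2689, 2006 and 2035 CPM on raw totals (2243 ± 386, SD, n = 3). Id2 stood at 52.5, 28.1 and 25.5 CPM (35.4 ± 14.9, SD, n = 3), and Id1 at 108, 62.2 and 46.6 CPM (72.4 ± 32.2, SD, n = 3). Replicate 1 was the highest for all 3 genes. No other group was in that table, so no test applies.

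As a share of all Id counts in a library, Id2 took 99.2% to 99.9% in the 11 NK libraries and 1.21% to 1.84% in the sCAF libraries. Id3 took 0.0782% to 0.611% in NK libraries and 94.4% to 96.6% in sCAF libraries. Counts of 3' RNA sequencing need not scale with exon length, so shares per base of exon are given only for comparison. On that scale Id2 took 98.7% to 99.9% in NK libraries, and Id3 92.9% to 95.7% in sCAF libraries. No library fell between these ranges.

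The NK and sCAF tables were deposited separately, so levels can only be set side by side across them. Over the 9215 genes in both, Id2 averaged 1545 ± 104 CPM (SD, n = 4) in tumour NK cells and 38.4 ± 15.9 CPM (SD, n = 3) in sCAF libraries, a ratio of 40.2. The ratio of the nearest pair of libraries was 24.9. Id3 averaged 7.62 ± 2.15 CPM in tumour NK cells and 2440 ± 404 CPM in sCAF libraries, a ratio of 320 in the other direction, or 236 for the nearest pair. Id1 was 51.2 to 117 CPM in sCAF libraries and at most 4.85 CPM in the NK libraries on this scale. The 10 NK markers gave at most 2.69 CPM in sCAF libraries, where only 1 of them was listed. The 8 fibroblast markers gave at most 19.8 CPM in NK libraries, where only 2 of them were listed.

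**Figure D3:**
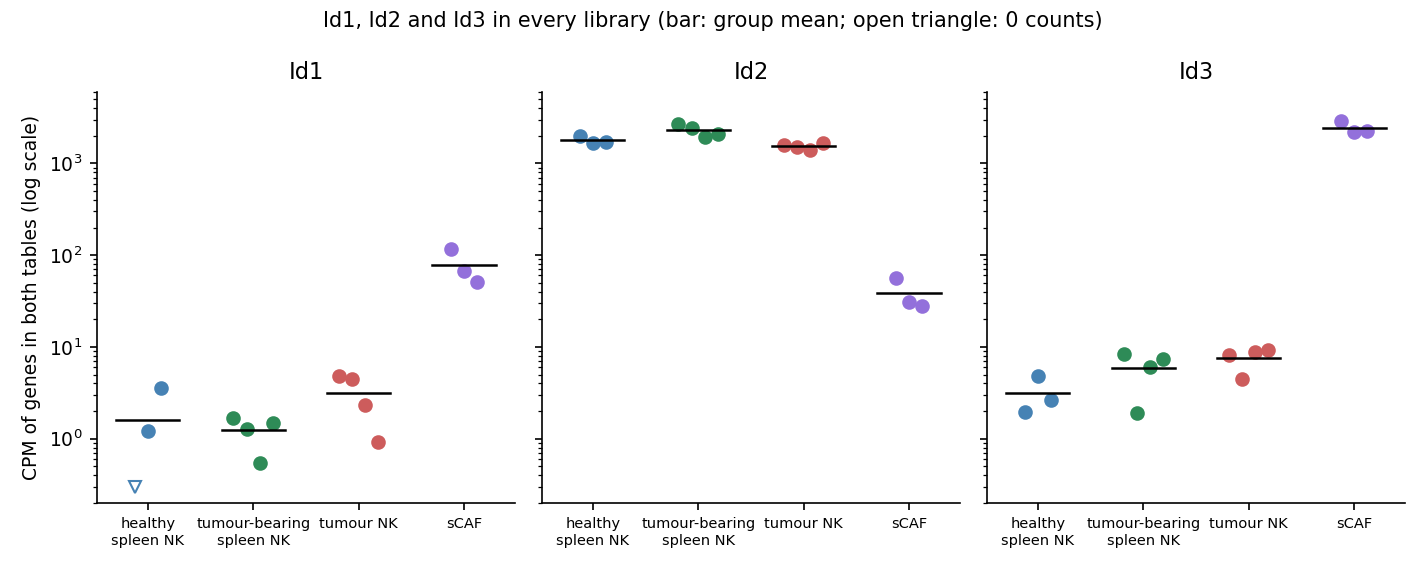
Id1, Id2 and Id3 in each of the 14 libraries as CPM over genes in both tables, on a log axis, with bars at group means and an open triangle for a count of 0. Id2 is at 1411 CPM or above in all NK libraries and at most 56.7 CPM in sCAF libraries, and Id3 has the opposite pattern.

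E proteins and other helix-loop-helix genes were counted next, from a list of 8 of which 5 were tested in NK cells. They are called partners below, a name that does not show pairing with Id proteins. Calls are genes below 0.05 in edgeR's quasi-likelihood test after Benjamini-Hochberg adjustment across the 8471 genes fitted. Of the 5 partners, 3 were called between tumours and tumour-bearing spleens, all higher in tumours, where 29% of all genes were called (15.8% higher). These were Tcf12, Bhlhe40 and Hes1, of which only Tcf12 encodes an E protein. The median log2 fold change of the 5 was 0.94, against 0.00 for all genes. Between tumours and healthy spleens 2 were called, Bhlhe40 and Hes1, both higher, where 30.5% of all genes were called (16.5% higher). Between the spleens edgeR called 0 and DESeq2 0, where 1.58% of all genes were called by edgeR (1.23% higher). At an unadjusted p under 0.05 were 2 of the 5, a looser threshold for which no share of all genes is given. Upper-quartile scaling turned the balance of all calls, to 1091 higher and 1530 lower against tumour-bearing spleens and 1154 and 1569 against healthy spleens. Without scaling they were 1027 and 1696, and 979 and 2002. Under TMM they were 1338 and 1115, and 1399 and 1183.

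Tcf3, which encodes E2A, averaged 93.1 ± 24.2 CPM in healthy spleens (SD, n = 3), 90.4 ± 12.4 CPM in tumour-bearing spleens and 77.7 ± 13.8 CPM in tumours (SD, n = 4 each), and was called in no contrast. On raw totals it was called lower in tumours than in healthy spleens (log2 fold change -0.48, adjusted p 0.0398), as it was without healthy replicate 1 (-0.47, adjusted p 0.0486). Tcf4, which encodes E2-2, stood at 32.4, 8.03 and 4.95 CPM in healthy spleens, 18.3, 13.4, 11.3 and 9.40 CPM in tumour-bearing spleens and 21.3, 27.5, 24.7 and 18.1 CPM in tumours. Healthy replicate 1 was far above its group, and without it Tcf4 was called higher in tumours (log2 fold change 1.72, adjusted p 0.000870). Tcf12, which encodes HEB, was 25.2 to 31.3 CPM in tumour-bearing spleens and 42.1 to 62.3 CPM in tumours (log2 fold change 0.94, SE 0.183, adjusted p 0.000602). Healthy spleens had 33.2 to 47.8 CPM of Tcf12, which overlapped tumours (log2 fold change 0.50, adjusted p 0.0669).

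Bhlhe40, a repressor induced by activation and hypoxia in lymphocytes, stood at 180, 164 and 114 CPM in healthy spleens, 203, 174, 152 and 129 CPM in tumour-bearing spleens, and 973, 898, 748 and 1030 CPM in tumours. Every tumour was above every spleen, a separation that 16.5% of genes had against tumour-bearing and 18.5% against healthy spleens. The log2 fold change was 2.47 (SE 0.172, adjusted p 2.20e-09) against tumour-bearing and 2.59 (SE 0.196, adjusted p 6.99e-09) against healthy spleens. Hes1, a repressor downstream of Notch, was 17.0 to 29.7 CPM in healthy spleens, 7.96 to 20.6 CPM in tumour-bearing spleens and 69.7 to 107 CPM in tumours. The change of Hes1 on the log2 scale was 2.64 (SE 0.241, adjusted p 8.08e-08) and 1.72 (SE 0.255, adjusted p 3.43e-05) in the same order. All 5 of these partners exceeded 3 counts in every sCAF library too, with Hes1 at 264 ± 15.4 CPM, Bhlhe40 at 236 ± 17.8 CPM and Tcf3 at 172 ± 7.79 CPM (SD, n = 3).

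Ligands, receptors, SMAD proteins and transcription factors known to act on Id genes formed a list of 24, of which 17 were tested. Against tumour-bearing spleens 9 were called higher and 2 lower in tumours, beside 15.8% and 13.2% of all genes. The list had a median log2 fold change of 0.65. Against healthy spleens again 9 were higher and 2 lower, beside 16.5% and 14% of all genes, with a median of 1.31. The medians of all genes were 0.00 and 0.02 in the same order of contrasts. Over all lists 18 genes were higher and 2 lower in tumours than in healthy spleens, and 15 and 4 on raw totals. All genes gave 1399 higher and 1183 lower, and 979 and 2002 on raw totals.

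Tgif1 had the largest fold change of this list in both tumour contrasts. Tgif1, a SMAD corepressor, stood at 20.0, 27.3 and 21.5 CPM in healthy spleens, 25.9, 35.7, 24.2 and 15.9 CPM in tumour-bearing spleens and 372, 359, 263 and 347 CPM in tumours. The log2 fold change was 3.70 (SE 0.193, adjusted p 4.43e-11) against tumour-bearing and 3.82 (SE 0.227, adjusted p 3.69e-10) against healthy spleens. Smad7, an inhibitory SMAD, was 47.4 to 94.5 CPM in the 7 spleens and 417 to 545 CPM in tumours (log2 fold changes 2.65 and 2.60, adjusted p 6.46e-09 and 5.09e-08). Tgfb1, a TGF-beta ligand, was 95.8 to 188 CPM in spleens and 447 to 564 CPM in tumours (log2 fold change 1.89, SE 0.176, adjusted p 1.11e-07 against tumour-bearing spleens).

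Skil, another SMAD corepressor, followed the sides of the spleen libraries, with 55.5 CPM in healthy replicate 1, 39.6 and 33.5 CPM in tumour-bearing replicates 1 and 2, and 5.06 to 7.43 CPM in the other 4. Tumours had 105 to 199 CPM. It was called higher in tumours in both contrasts (log2 fold changes 2.70 and 2.91, adjusted p 0.0218 and 0.0343). Leaving out tumour-bearing replicate 3, tumour-bearing replicate 4 or tumour replicate 2 gave adjusted p of 0.0561, 0.0509 and 0.0520 against tumour-bearing spleens. Against tumour-bearing replicates 1 and 2 alone the log2 fold change was 1.88 (adjusted p 0.110), and against replicates 3 and 4 alone it was 4.51. Leaving out healthy replicate 2 or 3, or any 1 tumour replicate, gave 0.0528 to 0.139 against healthy spleens.

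Smad3, which carries TGF-beta signals, went the other way. It averaged 213 ± 13.4 CPM in healthy spleens (SD, n = 3), 157 ± 11.2 CPM in tumour-bearing spleens and 120 ± 9.32 CPM in tumours (SD, n = 4 each). The log2 fold change was -0.38 (SE 0.121, adjusted p 0.0231) and -0.82 (SE 0.130, adjusted p 7.92e-05) against tumour-bearing and healthy spleens. The first call was lost without tumour-bearing replicate 3 (adjusted p 0.0757) or tumour replicate 2 (0.0701), and against tumour-bearing replicates 1 and 2 alone (0.145). Smad5, which carries BMP signals, was lower in tumours than in healthy spleens (29.5 ± 4.03 against 49.8 ± 6.43 CPM, log2 fold change -0.79, adjusted p 0.00595), a call lost without healthy replicate 2 (adjusted p 0.0542). Smad1 rose instead, from 1.45 to 5.58 CPM in tumour-bearing spleens to 7.61 to 11.5 CPM in tumours. The rise was 1.32 on the log2 scale (SE 0.460, adjusted p 0.0375), from spleen levels near the floor. It kept its call in only 6 of 16 alternatives. Healthy spleens had 1.65 to 10.8 CPM of Smad1, which overlapped tumours (1.38 on that scale, adjusted p 0.0629).

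The EGR factors, induced by receptor signalling and known to act upstream of Id2 and Id3 in T cells, were the 3 members of this list called between the spleens, all higher in tumour-bearing mice, where 1.58% of all genes were called and 1.23% were higher. Egr1 was 29.3, 22.5 and 14.0 CPM in healthy spleens, 104, 96.0, 80.8 and 51.4 CPM in tumour-bearing spleens and 192, 233, 143 and 194 CPM in tumours, without overlap between any groups. On the log2 scale it rose by 1.97 (SE 0.280, adjusted p 0.00100) between the spleens and 3.15 (SE 0.278, adjusted p 2.43e-07) between tumours and healthy spleens. Egr2 rose from 1.65 to 9.25 CPM in healthy to 16.6 to 24.0 CPM in tumour-bearing spleens (log2 fold change 2.17, adjusted p 0.00337). Egr3 rose from 1.54 to 5.78 CPM to 10.3 to 38.0 CPM (log2 fold change 2.69, adjusted p 0.00520). Healthy Egr2 and Egr3 levels were near the floor, and without healthy replicate 2 both calls were lost (adjusted p 0.0523 and 0.0929). Egr3 was lower in tumours than in tumour-bearing spleens (log2 fold change -1.37, adjusted p 0.00990), but not without tumour-bearing replicate 2 (adjusted p 0.0523). Against tumour-bearing replicates 1 and 2 alone it was -1.83, and against replicates 3 and 4 alone -0.75 (adjusted p 0.156).

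Lymphocyte genes associated with E protein activity were taken from a list of 18, of which 14 were tested. In tumours 5 were called higher and 1 lower than in tumour-bearing spleens, beside 15.8% and 13.2% of all genes. Their median log2 fold change was 0.30, against 0.00 for all genes. Against healthy spleens 7 were called, all higher, beside 16.5% of all genes, with a median of 0.70 against 0.02. Cdkn1a, a cell cycle inhibitor, averaged 23.1 ± 3.61 CPM in healthy and 26.3 ± 2.24 CPM in tumour-bearing spleens, and 480 ± 69.1 CPM in tumours (log2 fold changes 4.36 and 4.17, adjusted p 4.86e-12 and 7.29e-13). Socs3, a cytokine signalling inhibitor, averaged 30.1 ± 5.60, 33.7 ± 8.75 and 290 ± 29.2 CPM in the same order of groups (log2 fold changes 3.22 and 3.09, adjusted p 7.77e-10 and 1.16e-10).

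Ccr7, a chemokine receptor that guides cells to lymph nodes, had 1 to 6 counts in each spleen library and 36 to 72 in tumours. On the log2 scale the rise was 4.37 (SE 0.370, adjusted p 3.24e-08) against tumour-bearing and 3.97 (SE 0.422, adjusted p 6.74e-07) against healthy spleens, from spleen levels at the floor. It was 3.58 against tumour-bearing replicates 1 and 2 alone and 5.94 against replicates 3 and 4 alone, which had 1 count each. Cxcr5, a receptor for B cell follicles, had 0 to 4 counts in spleens and 6 to 14 in tumours (log2 fold changes 2.93 and 2.00, adjusted p 0.00189 and 0.0295). Without healthy replicate 2 the second call was lost (adjusted p 0.153).

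Cd3d, a T cell receptor subunit gene, was the listed gene called between the spleens in this group. It stood at 20.0, 26.2 and 38.0 CPM in healthy spleens, 81.6, 57.5, 77.7 and 104 CPM in tumour-bearing spleens and 55.7, 46.4, 64.9 and 32.3 CPM in tumours. The fitted change on the log2 scale was 1.47 (SE 0.260, adjusted p 0.00446) between the spleens and -0.65 (SE 0.220, adjusted p 0.0325) between tumours and tumour-bearing spleens. The first call was lost without healthy replicate 2 (adjusted p 0.0725). The second was lost without tumour-bearing replicate 3 or 4 or tumour replicate 1, 2 or 4 (0.0554 to 0.109), and against tumour-bearing replicates 1 and 2 alone (-0.44, adjusted p 0.262). Of 8 listed T cell markers 4 were in the NK table, summing to 50.0 to 81.0 CPM in healthy spleens, 111 to 148 CPM in tumour-bearing spleens and 61.0 to 100.4 CPM in tumours. Cd3d is itself one of them and made up much of the sum. On raw totals and in the same order, Cd3g was 25.0 to 39.7, 42.6 to 52.9 and 20.1 to 44.9 CPM. Cd4 went the other way between the spleens, at 1.65 to 3.94, 0.698 to 1.55 and 0.871 to 2.81 CPM, near the floor, and Bcl11b was at most 5.34 CPM. The part of the other 3 in the Cd3d level was not tested.

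**Figure D4:**
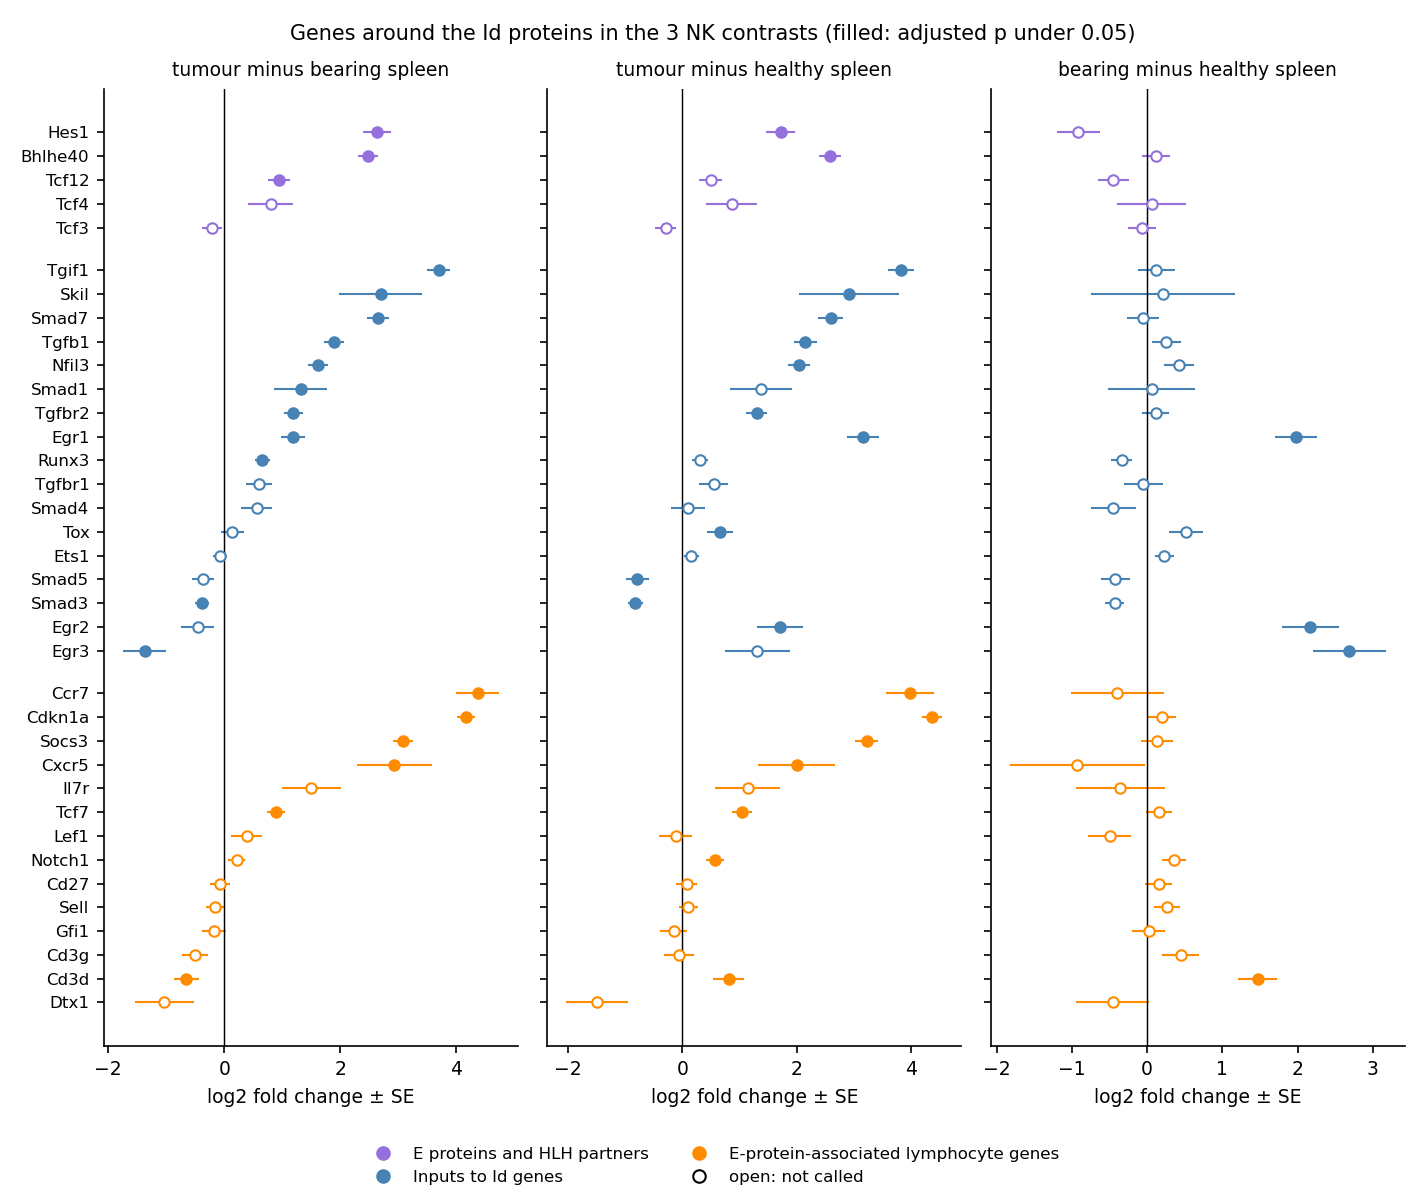
Fitted log2 fold change ± SE of the tested partners, inputs and E-protein-associated genes in the 3 NK contrasts, with filled points at an adjusted p under 0.05. Bhlhe40, Hes1, Tgif1, Smad7, Cdkn1a and Socs3 lie right of 0 in both tumour contrasts, and 4 genes are filled between the spleens.

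Markers of some other cell types summed to more in tumour NK libraries than in spleens, and those of others did not. The 3 of 6 listed neutrophil markers in the table summed to 55.5 to 153 CPM in tumours and at most 11.9 CPM in spleens. The 6 of 8 macrophage and monocyte markers summed to 25.3 to 127 CPM in tumours and 5.36 to 21.4 CPM in spleens, and the 2 of 6 epithelial markers to 25.0 to 51.0 CPM and at most 3.57 CPM. Pecam1, the only listed endothelial gene in the table, encodes the CD31 that the sort selected against, and was 131 to 185 CPM in tumours and 48.2 to 93.0 CPM in spleens. The 2 of 6 dendritic cell markers summed to 173 to 224 CPM in tumours, 250.2 to 320 CPM in tumour-bearing spleens and 171 to 178 CPM in healthy spleens. Itgax made up most of that sum, at 160 to 212, 245 to 316 and 167 to 175 CPM in the same order. Zbtb46, the other marker, was higher in tumours, at 11.3 to 21.3 CPM against 3.49 to 5.44 and 1.79 to 4.51 CPM. Cd79b, the 1 of 5 B cell markers in the table, was 1.40 to 3.48 CPM in tumours and 3.38 to 10.7 CPM in spleens. The part of these markers in the tumour values of Id2 and of the listed genes was not tested.

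TGF-beta and BMP ligands and antagonists were read in the sCAF libraries, where Id3 was high. Of 14 listed genes 13 were in the table, and 6 exceeded 3 counts in every library. Tgfb3 had 83.8, 119 and 153 CPM, and Tgfb1 had 76.7, 78.1 and 84.1 CPM. Bmp7 had 31.8, 50.1 and 35.3 CPM, and Inhba, an activin subunit, had 6.28, 9.10 and 8.26 CPM. Bmp4 and Bmp6 had 0 counts in all 3 libraries, which allows up to 2.28 CPM in the shallowest. Egr1 was high in these libraries, at 842, 1078 and 1420 CPM.

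The genes whose log2 CPM over the 11 NK libraries was most like that of Id2, among 5842 genes with a mean of at least 20 CPM, were Mrpl18 (Pearson r 0.93), Mrpl20 (0.85), Lsm2 (0.849) and Mrps17 (0.847). Mrpl18 encodes a mitochondrial ribosomal protein and averaged 119 ± 3.09 CPM in healthy spleens, 165 ± 20.1 CPM in tumour-bearing spleens and 115 ± 1.61 CPM in tumours. Cipc (-0.927) was least like Id2. For Id3, among 5843 genes, the closest were Ndufb5 (0.919), Grcc10 (0.915), Rps26 (0.884) and Spint2 (0.875), and the farthest Mfhas1 (-0.928) and Pogk (-0.920). These libraries share groups and scaling, Id3 rests on few counts, and the values of r are descriptions.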

How the data were processed

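Raw counts per gene were deposited in 2 tables, for 11 NK and 3 sCAF libraries of 3' RNA sequencing. Per the submitters' processing notes, bcl2fastq, STAR 2.4.2a, HTSeq and the mm10 build were used by the authors. The annotation, strand setting and use of molecular identifiers are not given in the sources used here, so counts are not read as molecules. Every NK gene listed reached at least 6 counts in some library, and 592 sCAF genes were at 0 in all 3, so totals cover listed genes only.

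Groups follow the labels. In edgeR 4.0.16 (R 4.3.3), filterByExpr kept 8471 NK genes, and 1 robust quasi-likelihood model with TMM scaling and group as the only term was fitted to all 11 NK libraries. NK levels are CPM on TMM library sizes, and sCAF levels and marker sums are CPM on raw totals. Alternatives were upper-quartile and DESeq2 size factors, raw totals, DESeq2 1.42.0, no filter, a replicate block, pairs of groups alone and leaving out each replicate. Intervals are exact Poisson at 95%. The fit was tested on simulated data. The members, lists and motifs were chosen with earlier results of these data known, the motifs with the sequences in view. All HLH partners were named. From the input and E-protein-associated lists, up to 4 called genes with the largest fold change in each tumour contrast and up to 3 between the spleens were named, plus those behind counts of 5 or fewer. Smad1 was named beside Smad5. From the stromal ligands the 4 highest were named. Likeness to Id2 and Id3 is Pearson's r, with the 4 highest and 2 lowest genes named, predicted or pseudogene-like names left out and 1 gene not reported here. Exonic sequence was compared in stretches of 30 bases. Promoters are from RefSeq (GRCm38.p6), where both members matched, and gene spans from GENCODE M21.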

Additional observations from a re-analysis of the deposited data

Results flagged for a closer look

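Of 76 groups of 4 libraries examined (38 genes), 3 held a library whose gap to the nearest other, as a share of the group's range, exceeded Dixon's 95% critical value. Chance gives about 1 in 20 groups, so 3 is no excess. No group of Id2 or Id3 was among them. Cdkn1a was 583 CPM in tumour replicate 2 against 434 to 453 CPM in the other tumours. Dtx1, a Notch target, was 34.3 CPM in tumour replicate 3 against 4.35 to 8.56 CPM. Smad3 was 173 CPM in tumour-bearing spleen replicate 3 against 149 to 152 CPM.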

How the results depend on the processing

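The Id2 log2 fold change kept its sign between tumours and tumour-bearing spleens in all 17 alternatives (-0.56 to -0.33) and between the spleens in all 15 (0.36 to 0.51). Between tumours and healthy spleens it moved from 0.01 to -0.0913 with upper-quartile scaling and -0.195 on raw totals, and ran from -0.04 to 0.04 when 1 replicate was left out. Leaving out 1 replicate moved Id3 between 0.26 and 0.73, 1.16 and 1.87, and 0.58 and 1.29 in the contrasts of tumours with tumour-bearing spleens, tumours with healthy spleens and the spleens. Id3 did not pass the filter without tumour replicate 3, with healthy spleens and 1 other group alone, or with the sides of the spleen libraries as a block, and has no value there. List genes called were 20, 20 and 4 in those contrasts, and with 1 replicate left out 15 to 21, 14 to 23 and 1 to 5, the 1 without healthy replicate 2. With the sides as a block 6 were called between the spleens. Calls over all genes between the spleens moved the same way. They were 104 higher and 30 lower of 8471 in the main fit, and 443 and 248 of 8282 with the block. Without healthy replicate 2 they were 35 and 7 of 8636.

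Between the spleens, uncalled values near 0 changed sign. With 1 replicate left out, Bhlhe40 ran from -0.0607 to 0.236, Tcf3 from -0.225 to 0.0786 and Tcf4 from -0.372 to 0.947. With the sides as a block Tcf3 became 0.0101 and Tcf4 -0.166, and Tcf4 became -0.0409 on raw totals and -0.0605 in DESeq2. The cause was not tested.

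Whether replicate numbers pair the libraries cannot be told from their deviations, since same-numbered and different-numbered values overlapped. Between tumour-bearing spleens and tumours, same-numbered deviations correlated at -0.047 to 0.288 and different-numbered ones at -0.252 to 0.158. Between the spleens the ranges were -0.353 to 0.501 and -0.522 to 0.528. With the replicate number as a block, Id2 was -0.43, -0.00 and 0.43 and Id3 0.55, 1.03 and 0.49, with 22, 21 and 4 list genes called. Under it Cxcr5 (adjusted p 0.0958) lost its call against healthy spleens. Tox kept its call there in 4 of 14 alternatives. Depth limits Id3 and Id1 in NK cells, where most libraries had 10 counts or fewer.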
